A study of Homo sapiens with 4 samples.

Results

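Ribonucleotide reductase and the enzymes that supply and limit deoxynucleoside triphosphates (dNTPs) were followed through 10 genes: RRM1, RRM2, RRM2B, DTYMK, NME1, NME2, DCK, TK2, DCTD and SAMHD1. Their rows were picked out by gene symbol, and all 10 of them were found among the 20323 gene rows and passed the filter on low counts. TK2 had 2 rows, of which the row with the higher mean count was used, and the other was at 0 in all 4 libraries. Poly(A) RNA was sequenced from 5-FU-resistant HCT-8 cells, a derivative of a human colorectal cancer cell line that tolerates 5-fluorouracil. One group was transfected with METTL14 overexpression plasmids (2 libraries) and the other with negative control plasmids (2 libraries). The cells of both groups also received 100 ug/mL cycloheximide (CHX), which stops ribosomes from elongating, so no value comes from cells without it. METTL14 is the partner of METTL3 in the enzyme that places N6-methyladenosine (m6A) on mRNA. The sources used here do not say whether the resistant line is 1 clone, or what share of cells took up a plasmid.

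Ribonucleotide reductase converts ribonucleoside diphosphates to deoxynucleoside diphosphates and is the only route of de novo dNTP synthesis. Its large catalytic subunit, RRM1, pairs with a small subunit that carries the radical, either RRM2, made in cells that replicate DNA, or RRM2B, a form that also serves cells outside S phase. Kinases then complete the triphosphates, salvage kinases feed in deoxynucleosides from outside the reductase route, and SAMHD1 breaks dNTPs down again. 5-Fluorouracil acts on the same pathway, since its metabolite blocks thymidylate synthase.

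The libraries held 19206661 and 19829158 counts with METTL14 and 20161082 and 19247784 counts in the controls, with 14411 to 14896 rows above 0. METTL14 itself had 390 and 421 CPM (counts scaled to library size with TMM factors) with its plasmid, against 24.6 and 30.7 CPM in the controls, the direction the labels state. EPCAM, an epithelial surface marker, stood at 480 and 500 CPM against 499 and 486 CPM. The 11 epithelial markers summed to 9260 and 9036 CPM against 18234 and 11907 CPM. Most of that sum was KRT8 (4548 and 4487 against 10346 and 6546 CPM) and KRT18 (2223 and 2151 against 5237 and 3057 CPM). The 10 epithelial markers that were tested had a median log2 fold change of 0.12, with a range from -0.92 to 1.19. The 6 leukocyte markers summed to 70.3 and 70.0 CPM against 20.4 and 19.6 CPM, nearly all of it CD68 (67.5 and 66.3 against 18.8 and 17.3 CPM), with PTPRC at 0 or 1 count and CD3E at 0. Fibroblast markers (6 genes) summed to 18.0 to 19.6 CPM against 12.6 to 16.0 CPM, and the 3 endothelial and 3 erythroid markers to at most 1.85 CPM in any library, with HBB at 0. The part of these other cell type markers in the results was not tested. Replicate libraries differed more between the 2 controls, with a chi-square of 28.8 per degree of freedom over genes, than between the 2 METTL14 libraries, with 3.29. Nothing in the labels shows separate cultures beyond a statement that the experiment was done again, so the p-values measure the spread between these libraries, which may be partly technical. The positions of members below are those of GENCODE release 29 on GRCh38. In bulk RNA, fewer cells that hold a transcript and less of it per cell cannot be told apart.

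With METTL14 overexpression, 7 of the 10 genes were lower, 1 was higher and 2 did not pass the test (edgeR's quasi-likelihood test over 12700 genes, called at a Benjamini-Hochberg adjusted p under 0.05). Over all tested genes 28.1% were lower and 27.0% higher, 55.1% in either direction. The members' median log2 fold change was -1.01, beside -0.01 for all tested genes. Asked for a change beyond 1.5-fold, the same test called 6 of the 10 lower and none higher, where 10.7% of all genes were called lower and 11.1% higher, 21.8% in all. The libraries of both groups did not overlap for 9 of the 10 genes, as for 79.8% of all tested genes. Of the 9, 8 were lower and 1 higher with METTL14, where 40.0% of all genes were separate and lower and 39.8% separate and higher. Together the 10 genes took 758 and 746 CPM with METTL14 and 2133 and 1825 CPM in the controls. A list of 24 S phase genes moved with them, at a sum of 1091 and 1039 CPM with METTL14 and 4422 and 3341 CPM in the controls.

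**Figure D1:**
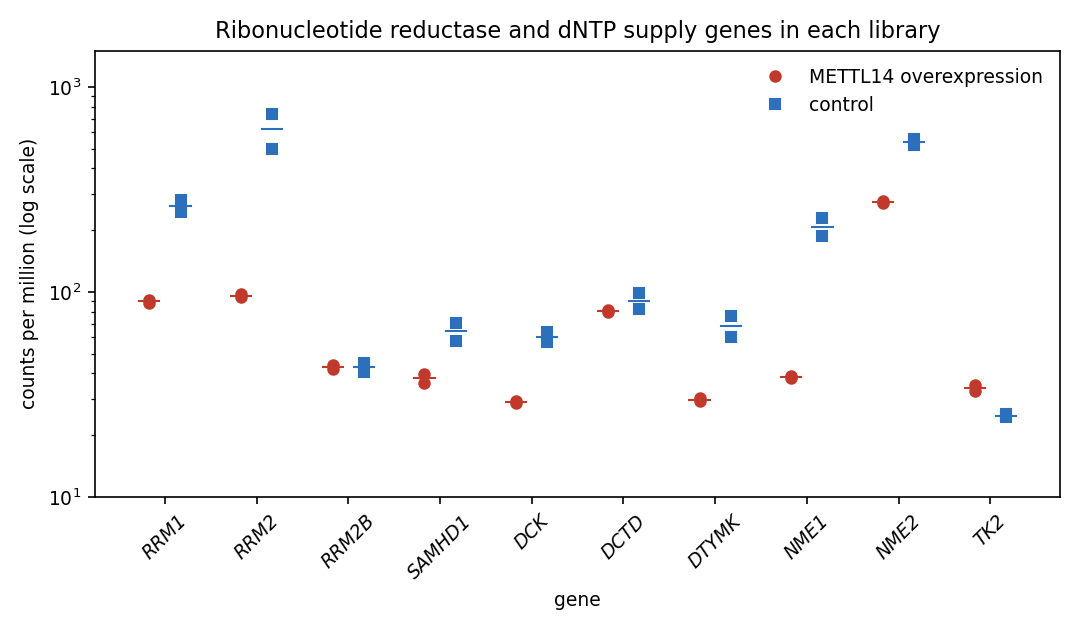
Level of each of the 10 genes in CPM (log axis), with 1 point per library and a line at the group mean, METTL14 overexpression (circles) left of control (squares). RRM2 shows the widest gap, with 97.5 and 94.2 CPM against 740 and 499 CPM, and the groups overlap only for RRM2B.

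RRM2 (chromosome 2, 10120698 to 10131419, plus strand), the small subunit of S phase, was 6.47-fold lower with METTL14, the largest change among the 10. It had 97.5 and 94.2 CPM in the METTL14 libraries, against 740 and 499 CPM in the controls (95.8 ± 2.33 against 619.5 ± 171 CPM, SD, n = 2 each; log2 fold change -2.69, SE 0.188, edgeR adjusted p = 9.94e-05). Both METTL14 libraries lay far below both controls, and the controls differed 1.48-fold from each other. Of all tested genes 0.26% had a log2 fold change as low as or lower than that of RRM2. RRM1 (chromosome 11, 4094707 to 4138876, plus strand), the catalytic subunit, had 91.0 and 88.6 CPM, against 280 and 245 CPM in the controls, and was 2.92-fold lower (log2 fold change -1.55, SE 0.109, edgeR adjusted p = 9.94e-05). Its groups did not overlap either, and its log2 fold change was smaller in size than that of RRM2, a difference that was not tested between the genes. The interval for RRM1 runs from -1.80 to -1.29 and that for RRM2 from -3.13 to -2.25 (95%, from the model, log2 scale).

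RRM2B, the alternative small subunit, had 42.1 and 44.2 CPM with METTL14 and 40.7 and 45.1 CPM in the controls. The METTL14 libraries lay between the controls. Its log2 fold change was 0.01 (SE 0.111, edgeR adjusted p = 0.960), with a 95% interval from -0.25 to 0.27, so a change of the size seen in RRM1 or RRM2 lies outside its interval. The small subunits stood in a different balance in the METTL14 libraries. Measured in TPM, transcript levels corrected for gene length, RRM2B made up 24.5 and 26.0% of RRM2 plus RRM2B transcripts with METTL14, against 3.96 and 6.35% in the controls. Small subunit transcripts of both kinds stood at 1.23 and 1.25 per RRM1 transcript with METTL14 and at 2.39 and 1.89 in the controls. These ratios are given as values per library and were not tested. An exact permutation test of 2 against 2 libraries could not go below p = 0.33.

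Promoter windows of 4 of the 7 genes that fell, RRM1, RRM2, DTYMK and NME1, and of TK2, the 1 gene that rose, are shown. All 4 that fell hold the letters marked below and TK2 does not, so these windows do not stand for all members. The windows are those of RefSeq on GRCh38.p14, from 250 bases before to 50 bases after a transcription start, written 5′ to 3′ on the gene's strand, and for RRM2 the more downstream of its 2 windows is given. Capitals mark CCAAT, the core letters of the element bound by the factor NF-Y, on either strand. SAMHD1, DCK and NME2 also fell, and their windows are not shown. No window of DCK or NME2 holds these letters, while that of SAMHD1 does. DCTD, which was not called, has none in its windows either.
RRM1 (chr11:4094435-4094734, plus strand): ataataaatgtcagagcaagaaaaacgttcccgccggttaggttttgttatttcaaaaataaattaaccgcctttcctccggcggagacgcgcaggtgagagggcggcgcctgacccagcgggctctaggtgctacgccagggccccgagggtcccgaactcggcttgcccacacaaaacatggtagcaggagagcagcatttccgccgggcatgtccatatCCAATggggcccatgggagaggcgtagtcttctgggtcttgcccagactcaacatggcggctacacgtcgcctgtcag
RRM2 (chr2:10122489-10122788, plus strand): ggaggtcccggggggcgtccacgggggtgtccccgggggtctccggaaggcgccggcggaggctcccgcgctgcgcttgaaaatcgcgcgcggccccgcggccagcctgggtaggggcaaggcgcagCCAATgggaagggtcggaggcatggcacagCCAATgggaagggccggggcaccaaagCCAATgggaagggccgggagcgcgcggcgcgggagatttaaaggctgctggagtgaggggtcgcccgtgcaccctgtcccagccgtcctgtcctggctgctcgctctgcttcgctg
DTYMK (chr2:241686766-241687065, minus strand): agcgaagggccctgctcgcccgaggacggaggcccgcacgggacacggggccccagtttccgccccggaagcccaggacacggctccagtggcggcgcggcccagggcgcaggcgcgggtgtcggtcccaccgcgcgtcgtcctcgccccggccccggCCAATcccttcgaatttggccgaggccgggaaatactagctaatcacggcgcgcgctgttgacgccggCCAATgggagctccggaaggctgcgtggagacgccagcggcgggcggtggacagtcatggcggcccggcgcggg
NME1 (chr17:51153309-51153608, plus strand): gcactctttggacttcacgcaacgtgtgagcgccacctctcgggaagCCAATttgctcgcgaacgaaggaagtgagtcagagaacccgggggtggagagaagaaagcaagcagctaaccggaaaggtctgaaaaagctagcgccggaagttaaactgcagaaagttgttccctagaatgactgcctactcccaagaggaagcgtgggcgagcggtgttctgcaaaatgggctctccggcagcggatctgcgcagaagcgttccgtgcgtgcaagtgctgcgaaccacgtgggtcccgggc
TK2 (chr16:66550073-66550372, minus strand): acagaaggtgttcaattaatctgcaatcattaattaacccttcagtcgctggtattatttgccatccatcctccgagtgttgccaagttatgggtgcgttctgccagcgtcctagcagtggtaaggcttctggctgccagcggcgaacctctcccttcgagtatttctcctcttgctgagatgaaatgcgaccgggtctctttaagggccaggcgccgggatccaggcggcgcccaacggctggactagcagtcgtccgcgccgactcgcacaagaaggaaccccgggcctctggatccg

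RRM2 held 3 CCAAT matches, which begin 123, 93 and 66 bases before the start. DTYMK held 2, at 92 and 24 bases before its start, RRM1 held 1 at 28 bases, and NME1 held 1 at 203 bases. The TK2 window held none. It reaches up to 66550372, inside the gene whose GENCODE 5′ end is at 66552544, so it describes 1 RefSeq start only. The same holds for the RRM2 window shown, which begins at 10122489, inside the gene whose GENCODE 5′ end is at 10120698. RRM2B was not matched to the table. Among the 9 members with a window, CCAAT or its reverse ATTGG occurred for 5 genes, RRM1, RRM2, DTYMK, NME1 and SAMHD1, in 6 of 13 windows. All 5 of these genes fell, but 7 of the 10 members fell in all. DCK and NME2, which also fell, had no match, nor did DCTD, which was not called. The same letters occur in 34.6% of the 35116 promoter windows of the genome table, so they are common. The letters of the E2F element (TTTCCCGC, TTTGGCGC, TTTGCCGC or TTTCGCGC, both strands) were in the DCK window alone and in 3.31% of all windows. The CHR element of cell cycle promoters (TTTGAA or TTCGAA, both strands) was in the windows of RRM1 and DTYMK and in 16.4% of all windows. The GC box (GGGCGG, both strands) was found for 6 members, in 9 of their 13 windows counted over all members, and in 45% of all windows. A match describes the letters of a window and not a bound site.

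DTYMK (chromosome 2, 241675742 to 241686991, minus strand), thymidylate kinase, phosphorylates dTMP to dTDP and serves both the de novo and the salvage route to dTTP. It had 30.3 and 29.2 CPM with METTL14, against 76.7 and 60.4 CPM in the controls, and was 2.30-fold lower (log2 fold change -1.20, SE 0.14, edgeR adjusted p = 0.000463). NME1 and NME2 are nucleoside diphosphate kinases, which make the triphosphates from all diphosphates. NME1 had 38.1 and 38.7 CPM with METTL14, against 230 and 187 CPM in the controls, 5.42-fold lower (log2 fold change -2.44, SE 0.13, edgeR adjusted p = 8.94e-05). NME2, the more abundant of this pair, had 277 and 270 CPM with METTL14, against 519 and 555.5 CPM in the controls, 1.97-fold lower (log2 fold change -0.97, SE 0.0964, edgeR adjusted p = 0.000265). For all 3 kinases the METTL14 libraries lay below both controls.

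The neighbours NME1 and NME2 (chromosome 17, 51153536 to 51162428 and 51165435 to 51171747, plus strand) are both covered by a readthrough gene, NME1-NME2, which has a row of its own. NME1-NME2 had 17.5 and 15.6 CPM with METTL14, against 7.75 and 12.1 CPM in the controls, and moved the other way (log2 fold change 0.74, SE 0.218, edgeR adjusted p = 0.0236). That call was lost without METTL14 overexpression replicate 1 (edgeR adjusted p = 0.0656). Of the 50-base words of the longest NME1 transcript 20.2% also occur in NME1-NME2, and of those of NME2 68.3%, while NME1 and NME2 share none with each other. The counts of all 3 rows are estimates that divide such reads and are less certain. NME1 made up 9.44 and 9.80% of NME1 plus NME2 transcripts (TPM) with METTL14, against 25.1 and 20.3% in the controls. With the readthrough counts added to NME1 the share was 15.3 and 15.1%, against 26.1 and 21.9%, and with them added to NME2 it was 8.84 and 9.22%, against 24.8 and 19.9%. Its direction was the same in each case.

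**Figure D2:**
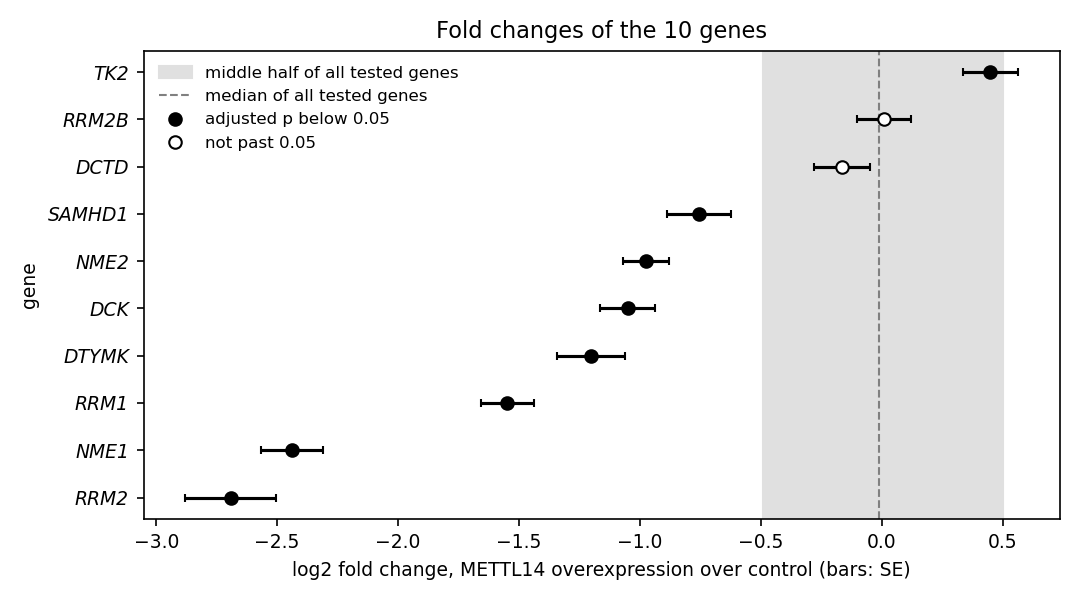
Log2 fold change of each gene, METTL14 overexpression over control, with its standard error as a bar, filled where the adjusted p is below 0.05, over the interquartile range (grey) and median (dashed) of all tested genes. RRM2 (-2.69) and NME1 (-2.44) lie furthest left, and RRM2B (0.01) and DCTD (-0.17) are open points inside the grey band. TK2 (0.45) is a filled point inside that band.

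DCK (chromosome 4, 70992538 to 71030914, plus strand), deoxycytidine kinase, starts the salvage of deoxycytidine and of deoxypurines in the cytosol. It had 29.3 and 28.9 CPM with METTL14, against 63.7 and 56.7 CPM in the controls, 2.07-fold lower (log2 fold change -1.05, SE 0.113, edgeR adjusted p = 0.000351). TK2 (chromosome 16, 66508003 to 66552544, minus strand), the mitochondrial thymidine and deoxycytidine kinase that supplies mitochondrial DNA synthesis, was the 1 member that rose. It had 35.3 and 32.7 CPM with METTL14, against 25.4 and 24.4 CPM in the controls, with a log2 fold change of 0.45 (1.36-fold higher; SE 0.115, edgeR adjusted p = 0.0131). Its log2 fold change was as high as or higher than that of 72.9% of all tested genes, so it lay inside their interquartile range. The groups of both genes did not overlap, but the call of TK2 was lost when METTL14 overexpression replicate 1 (edgeR adjusted p = 0.18) or replicate 2 (edgeR adjusted p = 0.0731) was left out.

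TK1, the cytosolic thymidine kinase of S phase, stood at 46.6 and 44.1 CPM with METTL14, against 278 and 216 CPM in the controls (log2 fold change -2.45, SE 0.143, edgeR adjusted p = 9.2e-05). TK2 thus made up 17.8 and 17.5% of TK1 plus TK2 transcripts per length with METTL14, against 2.55 and 3.14% in the controls. As a share of counts, with no correction for length, TK2 made up 42.8% with METTL14, against 9.25% in the controls (means of 2 libraries).

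DCTD (chromosome 4, 182890060 to 182917936, minus strand), dCMP deaminase, makes dUMP, the substrate of thymidylate synthase. It had 81.4 and 80.0 CPM with METTL14, against 98.9 and 82.2 CPM in the controls, with a log2 fold change of -0.17 (SE 0.116, edgeR adjusted p = 0.263) and a 95% interval from -0.44 to 0.11. Its METTL14 libraries lay just below the lower control, control replicate 2, and without that library the log2 fold change was -0.30. With 1 control left, the spread came from the METTL14 pair alone, so that fit is given by its fold change only. SAMHD1 (chromosome 20, 36889773 to 36951901, minus strand), the triphosphohydrolase that degrades dNTPs and also acts at stalled replication forks, had 36.1 and 39.7 CPM with METTL14, against 57.6 and 70.6 CPM in the controls. It was 1.69-fold lower (log2 fold change -0.76, SE 0.133, edgeR adjusted p = 0.00258), with no overlap between the groups. The METTL14 libraries that held less RRM1 and RRM2 thus also held less SAMHD1. SAMHD1 shares exon positions with TLDC2 on the other strand, which had 128 and 152 counts with METTL14 and 98 and 130 counts in the controls, beside 702 and 804 against 1107 and 1375 counts of SAMHD1.

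**Figure D3:**
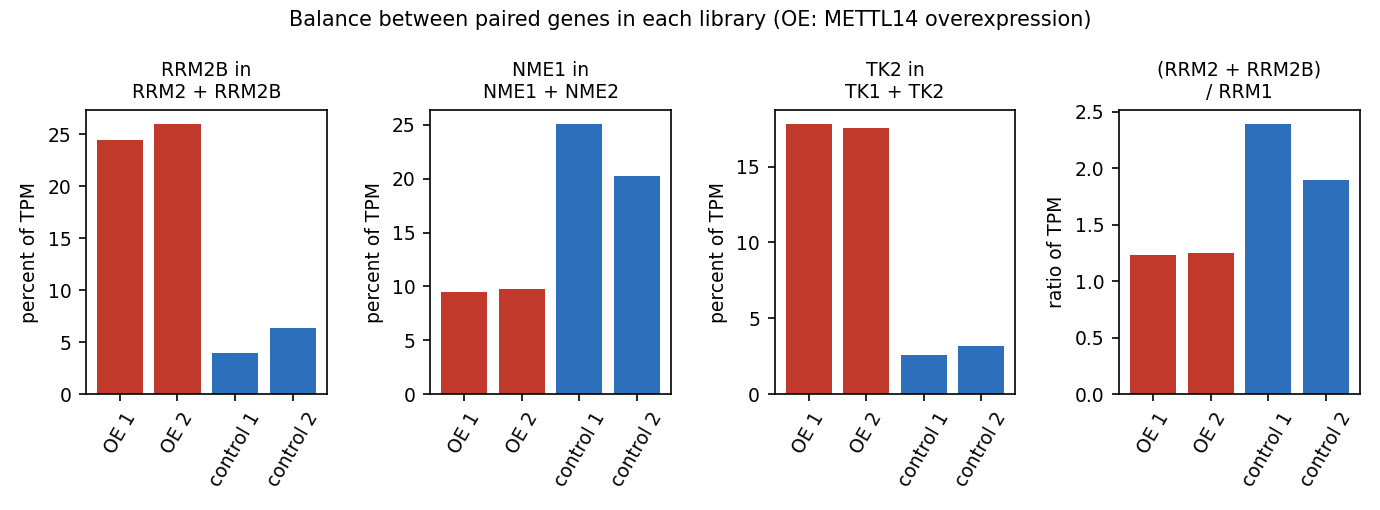
Percent of transcripts (TPM) that RRM2B, NME1 and TK2 make up in their pairs, and the ratio of RRM2 plus RRM2B to RRM1, as 1 bar per library, METTL14 overexpression (OE) left of control. RRM2B reaches 24.5 and 26.0% against 3.96 and 6.35%, and TK2 17.8 and 17.5% against 2.55 and 3.14%, while NME1 and the small subunit ratio are lower with METTL14.

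Per length, in TPM, NME2 led both groups, at 482 ± 9.35 TPM with METTL14 and 897 ± 69.8 TPM in the controls (SD, n = 2 each). With METTL14 it was followed by DCTD (93.6 TPM), RRM1 (70.3), RRM2 (65.3), DTYMK (63.6), NME1 (51.3), DCK (27.2), RRM2B (22.0), SAMHD1 (16.2) and TK2 (14.9 TPM). In the controls the order after NME2 was RRM2 (398 TPM), NME1 (263), RRM1 (194), DTYMK (138), DCTD (99.2), DCK (53.2), SAMHD1 (25.9), RRM2B (20.8) and TK2 (10.3 TPM). Among neighbours in these orders, RRM2 with DTYMK and SAMHD1 with TK2 had overlapping libraries with METTL14, and no neighbours overlapped in the controls. DCTD thus ranked 2 of 10 with METTL14 and 6 of 10 in the controls, with a level that did not pass the test of a difference.

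The letters GGACT, the commonest core of the m6A consensus, were counted in the longest protein-coding transcript of each gene. The median over 12530 tested genes was 0.945 per kb. SAMHD1 (1.70 per kb, 9 matches), RRM2B (1.42, 7 matches), RRM1 (1.30, 4 matches) and NME2 (1.16, 1 match) lay above it. NME1 (0.608, 1 match), TK2 (0.587, 3 matches), RRM2 (0.545, 2 matches) and DCK (0.368, 1 match) lay below it, and DCTD and DTYMK had no match. Members that fell lay on both sides of the median, SAMHD1, RRM1 and NME2 above it and RRM2, NME1, DCK and DTYMK below it. With so few matches these densities are coarse, and m6A itself was not measured here.

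Other genes of dNTP supply were mostly lower too. Of 53 listed genes 51 were tested, 28 were lower, 7 higher and 16 not called, with a median log2 fold change of -0.54, against 28.1% lower and 27.0% higher over all tested genes. SLC28A3, a nucleoside transporter, and AK4, an adenylate kinase of mitochondria, had at most 4 counts in any library and were not tested. Of the 6 thymidylate supply genes 5 were lower. TYMS, thymidylate synthase and the target of 5-fluorouracil, had 61.2 and 60.2 CPM with METTL14, against 281 and 209 CPM in the controls (log2 fold change -2.01, SE 0.152). DUT, which makes dUMP from dUTP, was at -0.93 (SE 0.103). TYMP, which degrades thymidine, had 8 and 15 counts with METTL14, against 13 and 19 in the controls, and did not pass. TYMS shares exon positions with ENOSF1 on the other strand.

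All 6 hydrolases of the nucleotide pool were lower, where 28.1% of all genes were. NUDT1, which removes oxidised purine nucleotides, was at a log2 fold change of -1.68 (SE 0.193), ITPA, which removes inosine nucleotides, at -0.98 (SE 0.12), and NUDT5, which acts on ADP-ribose and oxidised diphosphates, at -0.68 (SE 0.0937). Of 8 regulators of the reductase 6 were lower and 1 higher. CHEK1, the replication checkpoint kinase, was at -1.30 (SE 0.11), with 29.1 and 28.3 CPM against 67.4 and 74.1 CPM. CDKN1A, an inhibitor of cyclin-dependent kinases, was higher at 0.55 (SE 0.127), with 90.6 and 86.6 CPM against 67.3 and 53.6 CPM. NUDT5 shares exon positions with genes on the other strand.

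Among the 6 reductants and partners of the reductase, 3 were lower, 1 was higher and 2 did not pass, where 28.1% of all tested genes were lower and 27.0% higher. AHCYL1, which binds the reductase and restrains it, had 397 and 399 CPM with METTL14, against 188 and 205 CPM in the controls (log2 fold change 1.02, SE 0.0983). TXNRD2, the mitochondrial thioredoxin reductase, was at -1.15 (SE 0.18), and TXNRD1, the cytosolic form, at -0.23 (SE 0.124, edgeR adjusted p = 0.157). The log2 fold change of TXNRD1 was -0.38 without control replicate 2 and -0.057 without control replicate 1.

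Of 10 tested kinases of mono- and diphosphates 4 were lower, 1 was higher and 5 did not pass. Over all tested genes 28.1% were lower and 27.0% higher, 55.1% in either direction, which is the background for the salvage genes, 5′-nucleotidases and carriers as well. AK3, an adenylate kinase of the mitochondrial matrix, was at a log2 fold change of 1.01 (SE 0.132). Of 6 tested salvage genes 2 were higher, with cytidine deaminase CDA at 0.95 (SE 0.126), 1 was lower, the purine nucleoside phosphorylase PNP at -0.91 (SE 0.0966), and 3 did not pass. The 5′-nucleotidases had 2 of 6 higher and 1 lower. NT5E, the cell surface enzyme CD73, had 140.5 and 143 CPM with METTL14, against 31.8 and 49.7 CPM in the controls (log2 fold change 1.80, SE 0.194), and the cytosolic NT5C was at -0.81 (SE 0.121). Of 3 mitochondrial carriers 2 were lower. The pyrimidine nucleotide carriers SLC25A33 and SLC25A36 were at -0.34 (SE 0.11) and 0.42 (SE 0.164). SLC25A33 no longer passed without METTL14 overexpression replicate 1 or replicate 2 (edgeR adjusted p = 0.239 and 0.217), nor with DESeq2 (adjusted p = 0.0698). SLC25A36 did not pass (edgeR adjusted p = 0.0624). Its log2 fold change was 0.196 without control replicate 1 and 0.689 without control replicate 2. SLC25A36 passed as higher with DESeq2 (adjusted p = 0.0353) and with no filter on low counts (edgeR adjusted p = 0.0481).

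**Figure D4:**
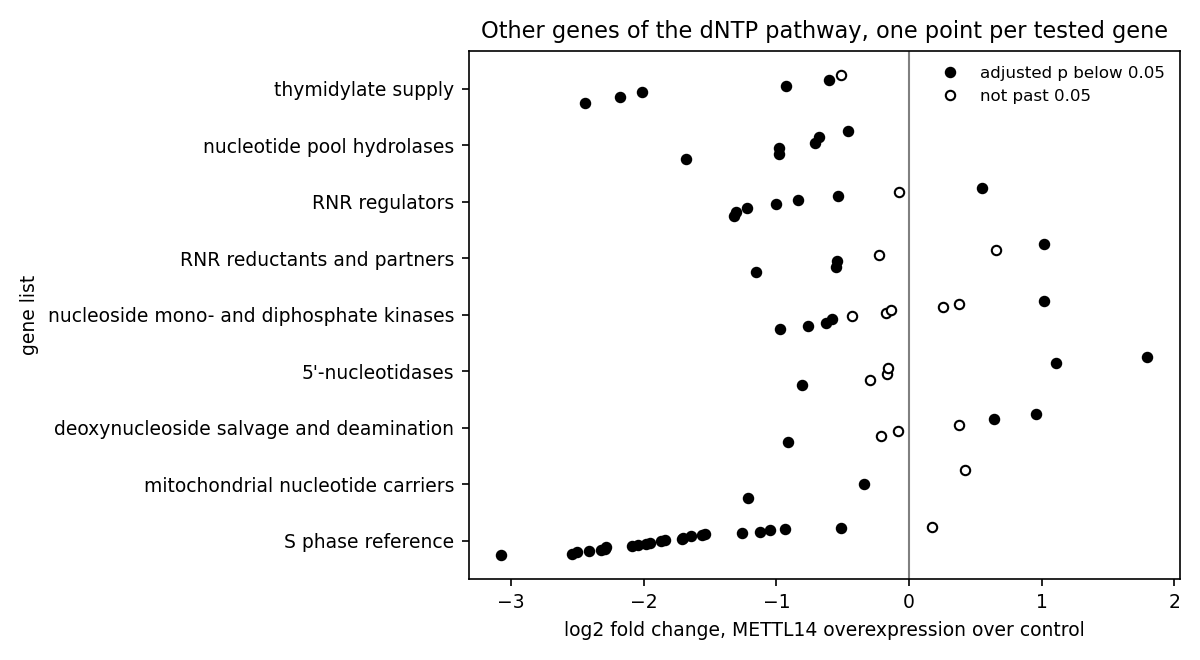
Log2 fold change of each tested gene in 8 lists of the dNTP pathway and a list of S phase genes, METTL14 overexpression over control, filled where the adjusted p is below 0.05. Thymidylate supply, pool hydrolases and S phase genes lie left of 0 almost throughout, while 5′-nucleotidases, salvage genes and kinases lie on both sides.

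Genes of DNA replication moved with the members that fell. Of 24 S phase genes 23 were lower, none was higher and CCNE1 did not pass (log2 fold change 0.17), with a median of -1.85, where 28.1% of all tested genes were lower. CDC6, which loads the replicative helicase, was at -2.09 (SE 0.106), and the helicase subunits MCM4 and MCM7 at -2.29 (SE 0.137) and -1.99 (SE 0.157). All 24 were higher in control replicate 1 than in control replicate 2, as were 7 of the 10 members and 48.9% of all tested genes. Without control replicate 1 the log2 fold change of RRM2 was -2.38, and without control replicate 2 it was -2.95. The part of S phase content in the fall of these members was not tested.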

How the data were processed

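The 4 libraries were grouped and numbered from their titles. RNA was extracted with Trizol and prepared with NEBNext Ultra reagents, per the labels' protocols. The authors deposited expected counts (estimated counts for each gene) without normalization. The submitters' processing notes list fastp, Bowtie2, HISAT2, RSEM and StringTie, and the build hg18, with roles, strand setting and annotation not given in the sources used here. Of the 20323 identifiers, 20171 are in GENCODE release 29 (GRCh38), which was used for lengths and positions only, so the build behind the counts is unclear. Of the values in a library 10.8 to 11.6% were not exactly whole (tolerance of 0), and counts were rounded. Rows without a symbol (102) held at most 0.0366% of counts.

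In R 4.3.3, edgeR 4.0.16 was run on counts kept by filterByExpr at a minimum count of 10, with TMM factors and its robust quasi-likelihood test, adjusted by Benjamini-Hochberg over 12700 genes at 0.05. Each standard error was obtained from the fold change and its F statistic, as |log2 fold change|/√F. TPM used the exon union of GENCODE basic transcripts. The fit was tested on simulated data. Alternatives used DESeq2 1.42.0 and limma 3.58.1, other scalings and filters, replicate number as a term, a test against 1.5-fold and leaving out each library. Tables were joined in Python 3.11.15 with pandas 2.3.3.

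The members and gene lists were chosen with earlier results of these data known. Named are the members, METTL14, NME1-NME2, TYMS, TK1, DUT and, in each list, the up to 2 genes with the smallest p and the gene with the highest mean count. SLC28A3, AK4, TYMP, CCNE1 and marker genes outside that rule were named after their values were seen. Some genes that this rule names are not reported here.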

Additional observations from a re-analysis of the deposited data

How the results depend on the processing

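RRM1, RRM2, NME1, NME2, DCK, DTYMK and SAMHD1 kept their direction under all 13 alternatives. In the alternatives that used all 4 libraries they also kept their side of the threshold, except SAMHD1 in the test against 1.5-fold. Fits that left out 1 library had 1 library in a group, so their spread came from the other group's pair alone. Counts of calls from those fits, given below, carry that limit. Against 1.5-fold, SAMHD1 (log2 fold change -0.76, adjusted p = 0.135) and TK2 (0.45) were not called, leaving 0 members higher, and 1416 genes were higher, 1357 lower and 15 other dNTP pathway genes lower. Leaving out 1 library gave 2307 to 4575 lower genes (2307 without METTL14 overexpression replicate 1), 0 to 1 members higher, 7 to 12 other dNTP pathway genes higher (12 without control replicate 2, 11 without control replicate 1), and log2 fold changes of -0.061 to 0.081 for RRM2B, -0.296 to -0.023 for DCTD and 0.40 to 0.50 for TK2. RRM2B turned to -0.027 without METTL14 overexpression replicate 2 and to -0.061 without control replicate 1, within its error. With the replicate block, 12 other dNTP pathway genes were higher instead of 7, SLC25A36 passed as higher (adjusted p = 0.00139), and 3797 genes were higher and 3903 lower. The deviations of same-numbered libraries had a correlation of 0.0443 across genes. The METTL14 libraries differed little from each other (chi-square of 3.29 per degree of freedom, against 28.8 in the controls). This correlation therefore cannot decide whether the number marks a shared experiment.

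Shares depend on the length used. As shares of counts, RRM2B was 31.1% with METTL14, NME1 12.3% against 27.9% in controls, TK2 42.8% against 9.25%, and the small subunit ratio 1.55 against 2.50. With the longest transcript as length, NME1 was 6.89% against 17%, TK2 19.8% with METTL14 and the ratio 1.19 with METTL14. The NME1 share with METTL14 was 9.03 or 15.2% with the readthrough counts in NME2 or NME1. The longest-transcript length was chosen after seeing the data. No direction between groups changed. Scaling by library totals moved the median of all genes to 0.04 on the log2 scale. Depth allowed all 10 members to be tested, and 2 libraries per group limit every p-value.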
